A study of Homo sapiens with 4 samples.

Results

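The genes described are 10 actin, tubulin and actin-binding genes: ACTB, ACTG1, TUBA1A, TUBA1B, TUBA1C, TUBB, TUBB2A, TUBB4B, CFL1 and PFN1. They were picked by name, as the array probes whose transcript accession maps to one of these symbols, and they are 10 of the 24154 genes with a symbol on the array. Together they had 16 of the 50599 probes other than controls. TUBB had 3 probes, ACTB, TUBA1C, TUBB2A and CFL1 had 2 each, and the others had 1. All 16 probes were well above background on all 4 arrays, so none was lost to the filter on dim probes.

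The RNA came from KYSE180, an established cell line of esophageal squamous cell carcinoma (ESCC), and the labels name no treatment, clone or genetic change. In the group called TIA1 RIP, ribonucleoprotein complexes of cytoplasmic lysates were immunoprecipitated with an antibody against TIA1 and their RNA was hybridized to 2 single-colour arrays. The group called total RNA is the input, also on 2 arrays, and the sources used here do not settle whether it was RNA of whole cells or of the lysate. Nothing in the labels says that same-group samples were separate cultures, so every p-value below measures only the spread between these arrays, which may be technical. The comparison asks which mRNAs were over- or under-represented in the TIA1 immunoprecipitates. Immunoprecipitates made with control IgG were not analysed here. Of 7 squamous epithelium markers, 7 were detected on both total RNA arrays, and of 9 markers of other cells, CD79A and COL1A1 were. PTPRC, a leukocyte marker with 4 probes, was also detected on each total RNA array, though by no single probe on both.

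Actins polymerize into the filaments of the cell cortex and of stress fibres, and ACTB and ACTG1 encode the β and γ actins that non-muscle cells make. α- and β-tubulins, here TUBA1A, TUBA1B and TUBA1C on one side and TUBB, TUBB2A and TUBB4B on the other, pair into the dimers that build microtubules. Cofilin (CFL1) severs actin filaments, and profilin (PFN1) binds actin monomers and feeds them to growing filaments. TIA1 is an RNA-binding protein of stress granules that is known to prefer U-rich stretches, often in the 3′ untranslated region (3′ UTR) of its target mRNAs.

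Total RNA replicate 2 stood apart from the other arrays. On it 32.2% of the spots were well above background, against 45.8% to 48.4% on the others, and its 75th percentile of the signal was 69.9 intensity units. The same percentile was 714 on total RNA replicate 1, and the immunoprecipitates had 1514 and 1271. Its log2 values correlated with those of total RNA replicate 1 at r = 0.751 across the 20099 probes tested, less than either TIA1 RIP array did with total RNA replicate 1 (0.937 and 0.884). The TIA1 RIP arrays correlated with each other at 0.943. The log2 ratios of the 10 genes are therefore given against each total RNA array as well as against both.

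The T-rich parts of the 3′ UTRs are shown because TIA1 prefers U-rich RNA. For each of 4 genes a window of 30 bases with the most T was taken from the 3′ UTR of its canonical GENCODE transcript on GRCh37, the build in the file headers. These are the γ-actin gene ACTG1, the α-tubulin gene TUBA1B, CFL1 and PFN1, 1 for each kind of protein besides β-tubulin, written 5′ to 3′ on the transcript strand as DNA, with runs of at least 5 T in capitals.
ACTG1: ttcattcttaatttatgtaaggTTTTTTTT
TUBA1B: tttctggttagattgttttcacttggtgat
CFL1: tgcttttgatcttttgattcctcttgggct
PFN1: aacttttgTTTTTTggggTTTTTTTTTTct
All 4 lie on minus-strand genes, in the 3′ UTR, at chr17:79477121-79477150 (ACTG1), chr12:49521634-49521663 (TUBA1B), chr11:65622570-65622599 (CFL1) and chr17:4848971-4849000 (PFN1).

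PFN1 held 21 T in its window, ACTG1 19, and TUBA1B and CFL1 16 each. The pentamer TTTTT, counted with overlaps on the transcript strand, occurred 33 times in the 1373 bases of the TUBA1C 3′ UTR, 26 times in the 600 bases of that of ACTB and 10 times in the 248 bases of that of PFN1. It occurred 9 times in TUBB (1025 bases), 5 times in CFL1 (663 bases), 4 times in ACTG1 (719 bases), once in TUBA1B (176 bases) and not in TUBA1A (215 bases), TUBB2A (197 bases) or TUBB4B (151 bases). Thus 7 of the 10 genes held it, beside 76.1% of the 3′ UTRs of 18753 protein-coding genes, whose median length was 1091 bases. The pentamer ATTTA was found in 4 of the 10, beside 68.6% of all. T made up from 25.5% (CFL1) to 37.5% (TUBA1B) of the 3′ UTRs of the 10 genes, with a median of 29.5% over all genes. It made up 34% in ACTB and 30.2% in PFN1, and in CFL1 and TUBB4B (28.5%) it lay below that median. These are counts of letters, and whether TIA1 binds any of the stretches was not measured on the arrays.

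The mean log2 ratios of the actin genes differed, but most of the difference came from total RNA replicate 2. ACTB minus ACTG1 shifted by -0.66 against total RNA replicate 1 and by -2.95 against replicate 2. The two-sided exact permutation test gave p = 0.333, the lowest it can reach with 2 arrays a group, so it cannot decide whether they differ. ACTB, the β-actin gene, was 3.57-fold lower in TIA1 RIP than in total RNA by one probe and 3.52-fold lower by the other, while the γ-actin gene ACTG1 differed by 1.01-fold. Both ACTB probes lay below both total RNA arrays in both TIA1 RIP arrays, on the scale of log2 signal minus the 75th percentile of its array. With quantile normalization in place of that scale, the brighter ACTB probe turned from a log2 ratio of -1.82 to 0.32 and the other stayed negative at -1.13.

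The ACTB probe printed 10 times on the array, A_23_P135769, read 4.10 and 4.36 in TIA1 RIP, and 5.11 and 7.02 in total RNA replicates 1 and 2. Its 10 copies on an array differed by an SD of only 0.03 to 0.05 on the log2 scale, far less than the gap between the total RNA arrays. The direction of that gap comes with the scaling. Before it the probe read 24666 and 9090 in total RNA replicates 1 and 2, whose 75th percentiles were 714 and 69.9. The SD of the copies does not measure the error of the scaling. The other, A_32_P137939, read 7.80 and 7.85 in TIA1 RIP and 8.63 and 10.65 in total RNA. Both probes thus placed the immunoprecipitates close together and below either input, and total RNA replicate 2 highest. Against total RNA replicate 1 alone the log2 ratios were -0.88 and -0.81, and against replicate 2 they were -2.79 and -2.83. In intensity units before scaling, A_32_P137939 gave 337968 and 293877 in TIA1 RIP and 283839 and 112631 in total RNA, so before scaling the immunoprecipitates read above both inputs. In limma the log2 ratios of -1.84 and -1.82 had standard errors of 0.93 and 0.94 and did not pass the adjusted threshold (adjusted p = 0.745 for both).

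ACTG1 was listed under a single probe, A_32_P156963, with 6.66 and 6.0 in TIA1 RIP and 6.51 and 6.18 in total RNA. The groups overlapped, and the log2 ratio was -0.18 against total RNA replicate 1 and 0.14 against replicate 2. Over both it was -0.02 with a 95% confidence interval from -1.90 to 1.87 and so spanned several-fold differences either way. It turned positive under 4 of the other ways of scaling, reaching 1.04 with quantile normalization. The β and γ actins are 98.9% identical in protein, with 4 of 375 residues different, and 91.3% identical in coding sequence, whereas their 3′ UTRs matched at 51.0% of the aligned positions. GENCODE lists 12 pseudogenes named after ACTB, 21 after ACTG1, 11 after PFN1, 9 after TUBB and 8 each after CFL1 and TUBB4B. It lists 0 named after TUBA1A, TUBA1B, TUBA1C or TUBB2A. The files used here hold no probe sequences, so how far a probe also reads a near-identical copy was not determined. The values of the single genes, CFL1 and PFN1 included, are uncertain in that sense.

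**Figure D1:**
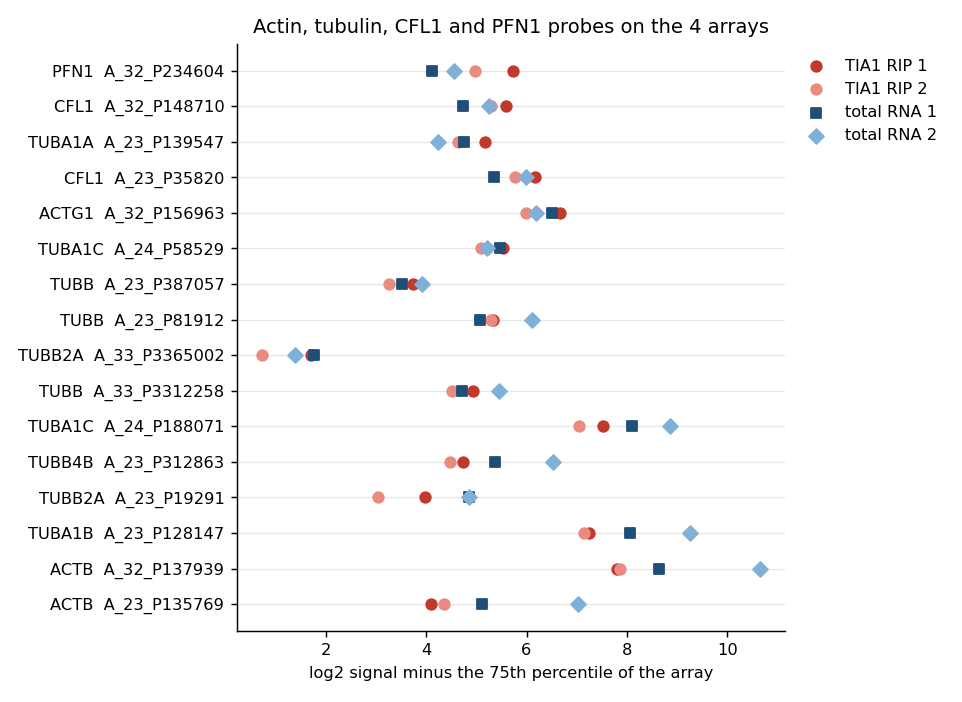
Scaled log2 signal (horizontal axis, log2 signal minus the 75th percentile of the array) of the 16 probes, one row a probe and one point an array, from the highest log2 ratio at the top (PFN1, 1.02) to the lowest at the bottom (ACTB, -1.84). In the rows of ACTB, TUBB4B and TUBA1B the red TIA1 RIP points lie left of both blue total RNA points, and total RNA 2 lies farthest right.

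Among the α-tubulins TUBA1B, the most widely expressed isotype, was the lowest. Its probe read 7.25 and 7.15 in TIA1 RIP against 8.07 and 9.26 in total RNA, with no overlap and a log2 ratio of -1.47 ± 0.84 (SE; adjusted p = 0.745 in limma). The ratio was -0.87 against total RNA replicate 1 and -2.06 against replicate 2, and it became 0.22 with quantile normalization. TUBA1A, an isotype known for its role in developing neurons, read 5.17 and 4.63 in TIA1 RIP and 4.75 and 4.23 in total RNA. Its groups overlapped and its log2 ratio was 0.41 ± 0.80 (SE; adjusted p = 0.912 in limma), with 0.15 against total RNA replicate 1 and 0.67 against replicate 2. The proteins of TUBA1A and TUBA1B are 99.6% identical, their coding sequences 97.2%, and their 3′ UTRs 48.4%.

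The pair of probes for TUBA1C, a further α-tubulin, disagreed. A_24_P188071 read 7.52 and 7.04 in TIA1 RIP and 8.11 and 8.86 in total RNA, a log2 ratio of -1.20 without overlap on this scale but of 0.52 with quantile normalization. A_24_P58529 read 5.53 and 5.09 against 5.46 and 5.22, a log2 ratio of -0.03 that changed sign under 4 scalings. Against total RNA replicates 1 and 2 the first had -0.82 and -1.58, and the second -0.15 and 0.09. Within an array the first stood 2.00 and 1.95 above the second in TIA1 RIP and 2.64 and 3.64 above it in total RNA. The mean of the probes for TUBA1C, a log2 ratio of -0.62, therefore rests on which probe is used.

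TUBB4B, a β-tubulin found in many tissues and in cilia, was the lowest of the β-tubulins together with one TUBB2A probe. It read 4.74 and 4.48 in TIA1 RIP and 5.37 and 6.53 in total RNA. The log2 ratio was -1.34 ± 0.84 (SE; adjusted p = 0.75 in limma), or -0.76 against total RNA replicate 1 and -1.92 against replicate 2. It stayed negative under every scaling tried, at -0.62 with quantile normalization.

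TUBB2A, which is prominent in neurons, gave 3.97 and 3.04 in TIA1 RIP by A_23_P19291 and 4.85 and 4.86 in total RNA. This was the only one of the 16 probes on which the total RNA arrays read alike to within 0.01, so the log2 ratio was -1.35 against either of them. Its adjusted p in limma was 0.749, and the ratio with quantile normalization was -0.93. The other probe, A_33_P3365002, overlapped between groups at 1.71 and 0.73 against 1.76 and 1.38, with a log2 ratio of -0.35, or -0.54 against total RNA replicate 1 and -0.16 against replicate 2. It was the dimmest of the 16 and still brighter than 66.0% of the probes tested.

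TUBB, the common β-tubulin of dividing cells, lay near the input with all 3 probes. Their log2 ratios were -0.23, -0.28 and -0.36, each with overlapping groups. All turned positive with quantile normalization, at 0.12, 0.52 and 0.27, and with normexp background correction. A_23_P81912 read 5.34 and 5.30 in TIA1 RIP, above the 5.08 of total RNA replicate 1 and below the 6.12 of replicate 2. Against replicate 1 the log2 ratios of the 3 probes lay between -0.02 and 0.24, and against replicate 2 between -0.80 and -0.43. Unlike TUBA1C and TUBB2A, the TUBB probes kept nearly the same mean distance from each other in both groups, with shifts of 0.05, 0.13 and 0.08. Single arrays varied more. A_23_P387057 minus A_23_P81912 was -1.61 and -2.04 in TIA1 RIP and -1.56 and -2.19 in total RNA. Its shift was -0.26 against total RNA replicate 1 and 0.37 against replicate 2.

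PFN1 was the highest of the 10 genes and the single gene whose TIA1 RIP arrays both lay above both total RNA arrays. Its ratio was positive under every scaling. Leaving an array out could not turn the sign, because the groups did not overlap. Its probe read 5.73 and 4.97 in TIA1 RIP and 4.11 and 4.55 in total RNA. The difference of 1.02 ± 0.81 (SE) on the log2 scale is 2.03-fold, with a 95% confidence interval from -0.89 to 2.93 and an adjusted p of 0.775 in limma. Here total RNA replicate 2 did not carry the difference, which was 1.24 against replicate 1 and 0.80 against replicate 2.

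CFL1 leaned the same way less clearly. A_32_P148710 read 5.59 and 5.29 in TIA1 RIP and 4.74 and 5.26 in total RNA, so the groups just failed to overlap, with a log2 ratio of 0.44 (adjusted p = 0.905 in limma). A_23_P35820 read 6.16 and 5.78 against 5.35 and 6.0, and overlapped, with a ratio of 0.30. Against total RNA replicate 1 the ratios were 0.70 and 0.62, and against replicate 2 they were 0.18 and -0.03.

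**Figure D2:**
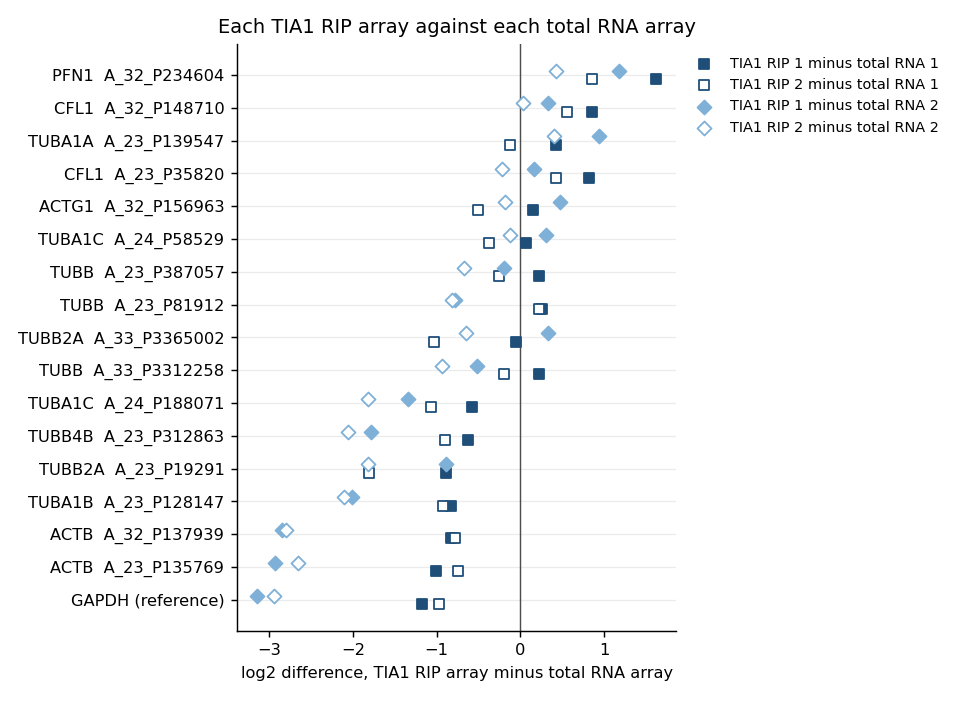
Log2 difference of each TIA1 RIP array from each total RNA array (horizontal axis) for the 16 probes and GAPDH, with squares for total RNA 1, diamonds for total RNA 2, filled points for TIA1 RIP 1 and open points for TIA1 RIP 2. The squares and diamonds of ACTB and GAPDH lie about 2 units apart, those of TUBB2A probe A_23_P19291 coincide, and those of PFN1 are all right of 0.

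Counts of the 16 probes were set beside those of all probes tested. Both TIA1 RIP arrays lay below both total RNA arrays on 6 of the 16 probes, beside 23.1% of all 20099 probes, and above them on 2 of 16, beside 17.8%. With quantile normalization the balance turned, to 3 of 16 below, beside 18.8% of all, and 8 of 16 above, beside 24%. Counted by gene with probes averaged, 5 of 10 were below (ACTB, TUBA1B, TUBA1C, TUBB2A and TUBB4B) beside 21.7% of 13039 genes, and 1 of 10 above (PFN1) beside 19.4%. Against total RNA replicate 1 alone, 7 of 16 probes were below on both TIA1 RIP arrays, beside 36.3% of all, and 4 above, beside 41.5%. Against total RNA replicate 2 alone, 9 were below, beside 52.8%, and 3 above, beside 36.6%. The median log2 ratio was -0.32 over the 16 probes and -0.11 over all probes.

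No probe of the 10 genes passed an adjusted p of 0.05 in limma, and neither did any of the 20099 probes (0% lower and 0% higher). At an unadjusted p under 0.05, 935 probes (4.65%) were lower and 231 (1.15%) higher in TIA1 RIP, with none of the 16 among them. The lowest unadjusted p among the 16 was 0.0881, for ACTB. Standard errors of 0.79 to 0.94 on the log2 scale, from 2 arrays a group, left the confidence intervals of all 16 across 0. Only without total RNA replicate 1 did any pass: both ACTB probes, TUBA1B and TUBB4B then had adjusted p-values of 0.017, 0.0161, 0.0319 and 0.0393 in limma, with total RNA replicate 2 as the lone input and the spread taken from the TIA1 RIP pair. These are 4 of 16 called lower, beside 20.1% of all probes, and none called higher, beside 14.4%.

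Bright probes were lower than others over the whole array. Over the brightest 5% of the tested probes, 1005 in number, the median log2 ratio was -1.13, and 63.8% of them lay below in both TIA1 RIP arrays and 5.87% above. Of the 16 probes, 6 were in that range. The bright ACTB probe, TUBA1B and TUBA1C A_24_P188071 were low and turned positive with quantile normalization, while ACTG1 (-0.02), TUBB A_23_P81912 (-0.28) and CFL1 A_23_P35820 (0.30) were near 0. The part that brightness and the scaling of total RNA replicate 2 have in these ratios was not tested.

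The study set enrichment against that of GAPDH, an abundant glycolytic enzyme mRNA taken as a non-target, and on this scale ACTB stood close to GAPDH, with the group means of the other 9 genes above both. GAPDH itself read 6.49 and 6.69 in TIA1 RIP and 7.67 and 9.63 in total RNA, a log2 ratio of -2.06, lower than that of any of the 10 genes. ACTB was 1.17- and 1.18-fold above GAPDH by its probes. Over the 4 pairs of a TIA1 RIP array with a total RNA array the fold lay between 1.12 and 1.21 for A_23_P135769 and between 1.1 and 1.27 for A_32_P137939. This narrow range held although total RNA replicate 2 put both mRNAs about 4-fold higher than replicate 1 did relative to the 75th percentile.

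PFN1 was 8.46-fold above GAPDH on the group means, CFL1 5.12- and 5.66-fold by its probes, TUBA1A 5.55-fold and ACTG1 4.12-fold. The TUBB probes were 3.25- to 3.57-fold above, the dimmer probes of TUBA1C and TUBB2A 4.08- and 3.26-fold. Their brighter probes were at 1.81- and 1.64-fold, TUBB4B at 1.65-fold and TUBA1B at 1.51-fold. So 10 of 16 probes were over 2.5-fold on the group means, beside 70.7% of all probes tested. The study used the same fold but required it both on arrays and by sequencing of the immunoprecipitates. These array counts alone are therefore not its criterion.

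In all 4 pairs of arrays, the probe of PFN1 and both of CFL1 were over 2.5-fold, 3 of 16, beside 26.4% of all probes. PFN1 lay between 3.57- and 20.1-fold and the CFL1 probes between 2.65- and 11.1-fold. ACTG1 ranged from 1.38- to 12.3-fold and TUBA1A from 1.81- to 17.0-fold, in both cases lowest for TIA1 RIP 2 over total RNA 1 and highest for TIA1 RIP 1 over total RNA 2. TUBB2A A_23_P19291 ran from 0.560- to 4.78-fold and so lay on both sides of GAPDH, as did TUBA1C A_24_P188071 and TUBB2A A_33_P3365002. Without total RNA replicate 2, the count over 2.5-fold on the means was 3 of 16, beside 42.6% of all probes.

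In limma on the values relative to GAPDH, the unadjusted p was 0.0220 for PFN1 and 0.0375 and 0.0337 for the CFL1 probes, 3 of 16 beside 21.9% of all probes. None of the 16 passed after adjustment (0% of all probes did), with adjusted p-values between 0.212 and 0.770. Without total RNA replicate 1, 10 of the 16 passed, beside 71.1% of all probes, with the same lone input. Subtracting GAPDH moved the median of all probes by 2.06 on the log2 scale, to 1.95, and the median of the 16 stood at 1.74, below it. Being above GAPDH was thus the common state of a probe on these arrays, and with the median of the tested probes in place of GAPDH none of the 16 was over 2.5-fold.

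**Figure D3:**
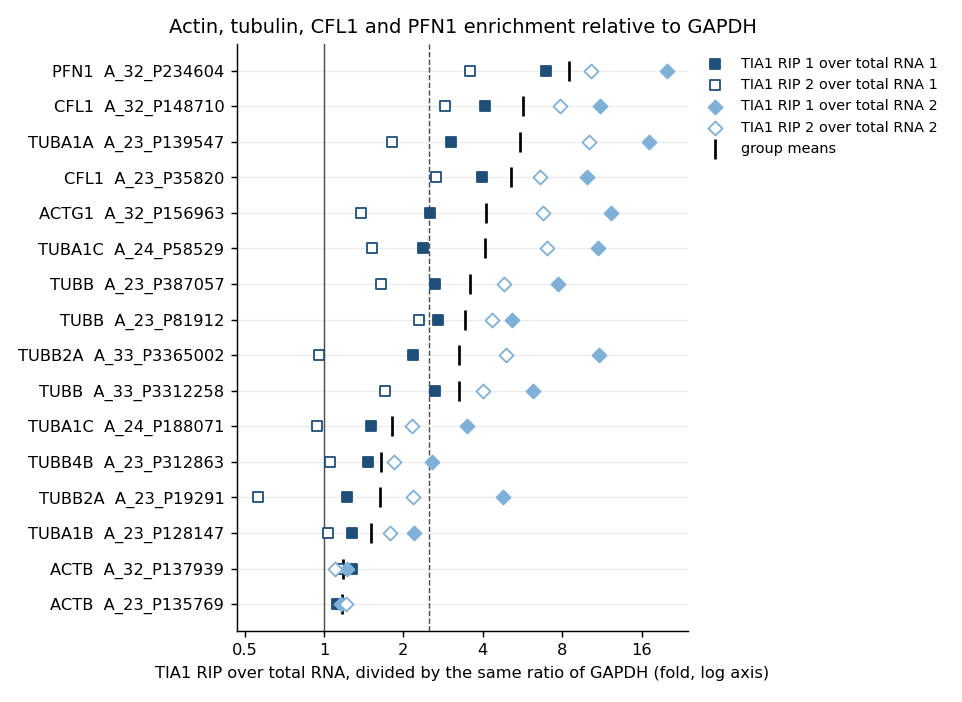
Fold of TIA1 RIP over total RNA divided by that of GAPDH (horizontal log axis) for each of the 4 pairs of arrays and for the group means (black bars), one row a probe, with a solid line at 1 and a dashed line at 2.5-fold. The 4 points of each ACTB probe cluster just right of 1, and the points of PFN1 and of both CFL1 probes all lie right of the dashed line.

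Differences between 2 of the genes on the same array do not depend on how arrays are shifted against each other by a single number. Each difference carries the unknown affinities of the probes, so only its shift between arrays is read, not its level. ACTB minus ACTG1 was -0.71 and 0.11 in TIA1 RIP and 0.37 and 2.66 in total RNA, a shift of -1.81 that amounts to 3.50-fold. The shift was -0.66 against total RNA replicate 1 and -2.95 against replicate 2. TUBA1B minus TUBA1A was 2.08 and 2.52 against 3.32 and 5.03, a shift of -1.88, or -1.02 against total RNA replicate 1 and -2.73 against replicate 2. Both of these differences kept their sign with quantile normalization (-1.45 and -0.76).

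ACTB minus PFN1 had the largest shift of the 8 gene pairs, at -2.85 or 7.20-fold, with 0.22 and 1.14 in TIA1 RIP and 2.76 and 4.29 in total RNA. It was -2.09 against total RNA replicate 1 and -3.61 against replicate 2. ACTB minus CFL1 shifted by -2.20, TUBB4B minus TUBB by -1.05, TUBA1B minus TUBA1C by -0.85 and CFL1 minus PFN1 by -0.65. Against total RNA replicate 1 these 4 shifts were -1.51, -0.84, -0.38 and -0.58, and against replicate 2 they were -2.89, -1.27, -1.31 and -0.72. The groups did not overlap in 7 of the 8. The exception was TUBB2A minus TUBB at -0.56, with -1.02 against total RNA replicate 1 and -0.11 against replicate 2. The share of all gene pairs without overlap was not computed, and several of the 8 share ACTB or TUBA1B. In total RNA the first gene of the pair read brighter in each of the 7 and dimmer in TUBB2A minus TUBB. Bright probes were lower over the whole array, and the part this has in the 7 was not tested. With 2 arrays a group the two-sided exact permutation test cannot go below p = 0.333, which is what each of the 7 gave (adjusted p = 0.5 over 15 comparisons, probe pairs included), and TUBB2A minus TUBB gave 0.667.

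**Figure D4:**
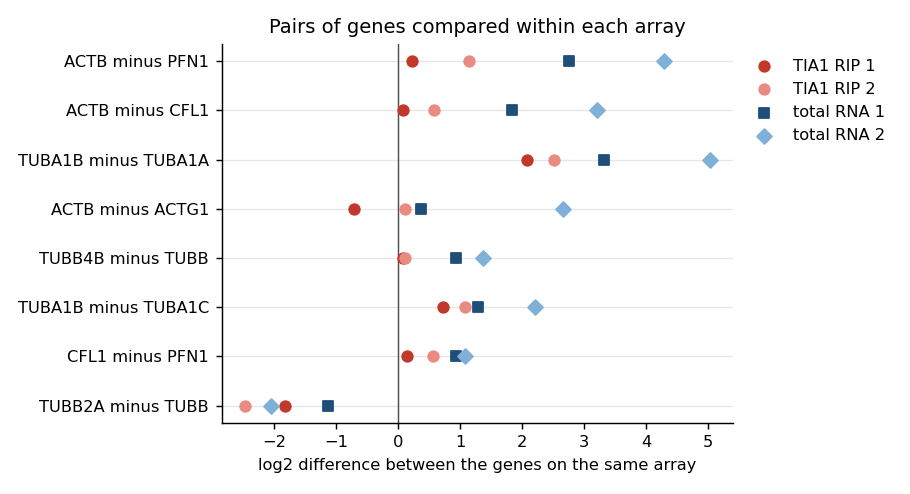
Log2 difference between a pair of the genes on the same array (horizontal axis) for 8 pairs, with circles for the TIA1 RIP arrays, a square for total RNA 1 and a diamond for total RNA 2. In every row but TUBB2A minus TUBB the TIA1 RIP circles lie left of both total RNA points, with the widest gap in ACTB minus PFN1.

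Set beside the 3′ UTR counts, ACTB and PFN1, with 43.3 and 40.3 TTTTT per kb, had the lowest and the highest log2 ratio of the 10 genes. TUBA1C, with 24.0 per kb, was at -0.62, and TUBB2A, TUBB4B and TUBA1A, with none, were at -0.85, -1.34 and 0.41. A relation between these features and the ratios was not tested.

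Other genes of the actin and tubulin systems were taken from lists written by function. Of 108 such genes 106 were on the array and 96 were detected, with 24 (25.0%) below and 22 (22.9%) above in both TIA1 RIP arrays, near the 21.7% and 19.4% of all genes. Their median log2 ratio was 0.19, beside -0.04 over all genes, and the counts of the single lists below, from 2 to 23 genes, are to be set beside the same shares. None of their 133 probes passed the adjusted threshold in limma, and at an unadjusted p under 0.05, 7 were lower and 3 higher, beside 4.65% and 1.15% of all probes.

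Of 12 further tubulins detected, 5 were below and 2 above in both TIA1 RIP arrays, with a median of -0.38. TUBA3D, an α-tubulin, was lowest at -2.65, of which -0.64 was against total RNA replicate 1 and -4.67 against replicate 2. TUBD1, δ-tubulin of the centriole, was highest of those detected on all arrays at 1.07, with 0.31 against total RNA replicate 1 and 1.83 against replicate 2. The other 2 actins detected, ACTA2 of smooth muscle and ACTBL2, were at -0.78 and -0.27, but at 0.02 and 0.26 against total RNA replicate 1.

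The ARP2/3 complex, which starts new filament branches, was above in both TIA1 RIP arrays for 5 of 8 genes and below for 2. Its actin-related subunit ACTR2 was highest at 1.44, with 0.47 against total RNA replicate 1 and 2.41 against replicate 2, and ARPC1B lowest at -0.49. Among 11 genes for monomer binding and severing, 4 were above and 2 below. PFN2, the second profilin, was highest at 2.77, at 4.41 and 4.40 in TIA1 RIP and 2.13 and 1.15 in total RNA, in the direction of PFN1. TMSB10, a thymosin that sequesters actin monomers, was lowest at -1.22, with -1.45 against total RNA replicate 1 and -0.99 against replicate 2.

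Of 23 genes for capping, binding and cross-linking of filaments, 8 were below and 4 above. FLNA, the filament cross-linker filamin A, was lowest at -3.29, at -0.76 and -1.40 in TIA1 RIP and 1.55 and 2.87 in total RNA. CAPZA1, a subunit of the filament capping protein, was highest at 3.25, though its total RNA arrays lay at 2.44 and -1.04. Of 10 kinases and phosphatases of cofilin, 2 were below and none above, from TESK1 at -1.20 (-0.28 and -2.12 against total RNA replicates 1 and 2) to PDXP at 0.22 (0.82 and -0.38) among those detected on all 4 arrays.

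Among 19 genes for folding of actin and tubulin, 5 were above and 3 below. CCT8, a subunit of the TRiC chaperonin, was highest at 1.38 but at -0.28 against total RNA replicate 1, and TBCD, a tubulin cofactor, lowest at -2.10 (-1.18 and -3.03 against replicates 1 and 2). Of 11 microtubule-associated genes 2 were above and 2 below, with CKAP5 at 1.13 (-0.62 against total RNA replicate 1) and MAP4, which stabilizes microtubules, at -1.39 (-0.69 and -2.08 against replicates 1 and 2). The median of the folding genes changed sign with the input (-0.17 against replicate 1 and 1.27 against replicate 2), and so did those of the other actins, the capping and cross-linking genes, the cofilin kinases and phosphatases and the microtubule-associated genes.

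**Figure D5:**
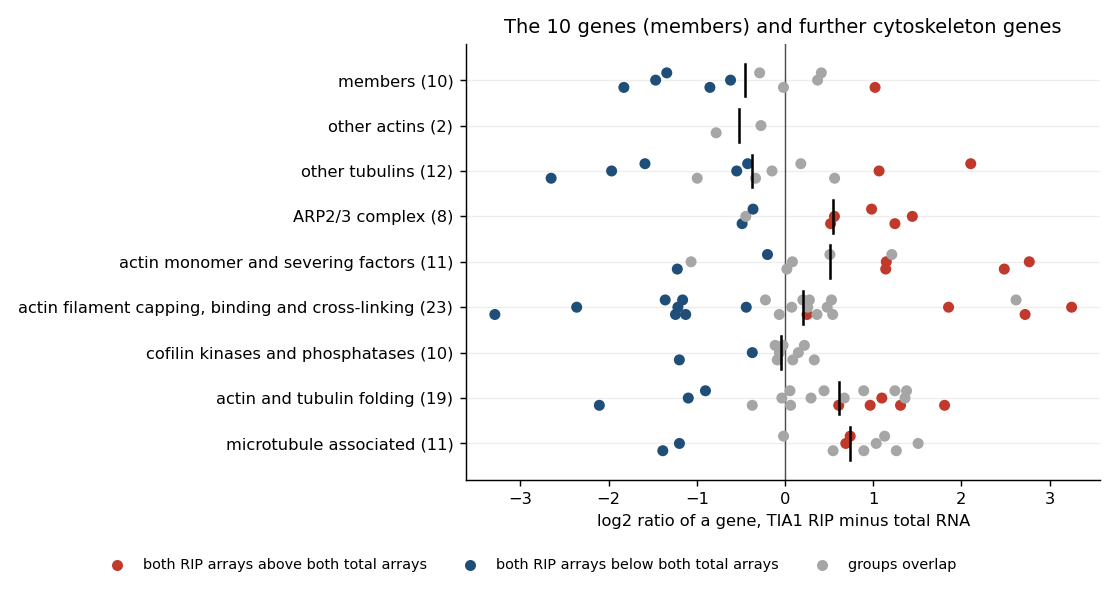
Log2 ratio of TIA1 RIP over total RNA (horizontal axis, 75th percentile scale) for each detected gene of the 10 (members) and of 8 further lists, with the number of genes in brackets and a black bar at the median. Red points are genes above in both TIA1 RIP arrays (5 of 8 in ARP2/3), blue points genes below (5 of the 10), and grey points overlap.

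The genes whose profile over the 4 arrays lay nearest to the median profile of the 10 were SRPRB, PELP1, CDCA5, OST4 and POTEKP. Their Euclidean distances on the scaled log2 signal were 0.29 to 0.47, against a median of 8.26 over 9227 genes. The median profile read 5.80 and 5.25 in TIA1 RIP and 5.21 and 5.91 in total RNA. These values were not centred by gene, so a small distance also means a like brightness. The log2 ratio of the median profile was -0.03, beside a median of -0.45 over the 10 genes. Nearness to it therefore does not show that a gene behaved like each of the 10. POTEKP is a pseudogene of the POTE family, whose members contain an actin-derived part.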

How the data were processed

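Per the labels, 0.2 µg of RNA per array was labelled with Cy3. For every spot the authors deposited a processed signal of Agilent Feature Extraction 10.7, a linear intensity after background subtraction, with flags and no scaling between arrays. The scaling and test used in GeneSpring are not given in the sources used here.

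Spots marked uneven or deviant (299 to 382 of 58717 per array) were dropped; none was saturated. The log2 intensity was centred on the 75th percentile of its array and averaged over the spots of a probe. A probe with at least 0.5 of its spots well above background counted as detected. The 20099 probes detected on both arrays of a group entered lmFit and eBayes of limma 3.58.1 (R 4.3.3) with Benjamini-Hochberg adjustment at 0.05, once as they were and once after subtracting GAPDH of the same array. The fit was tested on simulated data. Only 2 arrays a group limit the precision.

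Symbols came from RefSeq and GENCODE accessions (68.2% of probes). The 3′ UTRs are those of canonical GENCODE transcripts and may differ from the transcript behind a probe, and some of their sequence is not reported here. Genes and lists were chosen with earlier results of these data known. Named are the 10 genes, GAPDH, the highest and lowest gene of each further list among those detected on all 4 arrays, and the 5 nearest profiles. Alternatives covered scaling, background, filter, floor, spots, block, reference and each array left out. Normexp (offset 50) used the median spot signal, the files holding no mean. All 4 arrays shared a slide and a scan, so no such block was fitted.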

Additional observations from a re-analysis of the deposited data

How the results depend on the processing

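With 2 arrays a group, residual spread comes mostly from the total RNA arrays, whose log2 difference had an SD of 2.01 across probes against 0.87 for the TIA1 RIP arrays. None of the 20099 probes was called, and with arrays left out in turn the calls ran from 0 to 2898 higher and 0 to 4035 lower (6 lower without TIA1 RIP replicate 1), and relative to GAPDH from 0 to 14280 above and 0 to 443 below. The highest counts all came without total RNA replicate 1, where total RNA replicate 2 is alone and assumed to vary like the TIA1 RIP pair. Then ACTB (-2.79 and -2.83), TUBA1B (-2.06) and TUBB4B (-1.92) passed, with a lowest adjusted p of 0.016 among the 16 probes. Without the detection filter 54 probes were called lower.

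The replicate block called 94 probes higher and 553 lower, none of the 16 (lowest adjusted p = 0.321). Same-numbered arrays deviated together at r = 0.439, but 2 pairs are too few to show that the numbers pair the samples.

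Of 16 probe ratios, 6 kept their sign under all 13 alternatives. Not all of these could turn a sign. The changes of filter, the floor and the block left each of the 16 ratios as it was. Leaving out an array cannot turn the ratio of a probe whose groups do not overlap. With quantile normalization the sign turned for ACTB A_32_P137939 (0.32), ACTG1 (1.04), TUBA1B (0.22), TUBA1C (0.52 and 0.68) and TUBB (0.12, 0.52 and 0.27), with normexp for ACTG1 (0.45), TUBA1C A_24_P58529 (0.44) and TUBB (0.24, 0.20 and 0.11), with the percentile over probes detected on all 4 arrays for ACTG1 (0.29), TUBA1C A_24_P58529 (0.28) and TUBB (0.083 and 0.030), and with the median set to 0 for ACTG1 (0.084) and TUBA1C A_24_P58529 (0.070). These scalings moved the median of all probes by 0.30, -0.11, 0.31 and 0.10. With arrays left out, ratios that changed sign ran from -0.35 to 0.31 for ACTG1, -0.25 to 0.19 for TUBA1C A_24_P58529, and -0.84 to 0.13 for TUBB2A A_33_P3365002, in each case highest without TIA1 RIP replicate 2. The TUBB probes ran from -0.46 to 0.011 (A_23_P387057, highest without TIA1 RIP replicate 2), -0.80 to 0.24 (A_23_P81912) and -0.73 to 0.0098 (A_33_P3312258, both highest without total RNA replicate 2). CFL1 A_23_P35820 ran from -0.030 without total RNA replicate 1 to 0.62 without replicate 2, and TUBB2A A_23_P19291 relative to GAPDH from -0.27 without total RNA replicate 2 to 1.69 without replicate 1.

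Probes below in both TIA1 RIP arrays numbered 3 of 16 with quantile normalization and 6 to 11 with arrays left out. Probes above numbered 8 with quantile normalization, 4 with normexp and 2 to 6 with arrays left out. With an array left out fewer arrays are compared, so any probe lies wholly below or above more easily. The 11 below came without TIA1 RIP replicate 1 and the 6 above without TIA1 RIP replicate 2. The shares of all probes were not computed for normexp or without a TIA1 RIP array. Those counts therefore cannot show whether these genes differ from other probes. Over 2.5-fold above GAPDH were 3 to 12 of the 16 and 8562 to 15207 of all probes with arrays left out, 8355 of all with probes detected on all 4 arrays, and 0 and 2614 with the median probe in place of GAPDH. The differences between 2 genes were recomputed under quantile normalization, normexp and each array left out, alternatives chosen after seeing the data. The 7 recomputed kept their sign. They include TUBB2A minus TUBB, whose groups overlapped, and leave out TUBA1B minus TUBA1C. For the pairs without overlap, leaving out an array could not turn the sign. Only quantile normalization and normexp could have turned it there.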
